A study of Solanum lycopersicum with 24 samples.

Results

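Of the 34075 genes in the deposited expression table of tomato shoot meristems, 5 carry a description from cytokinin metabolism or signalling. They are 4 genes of cytokinin breakdown, namely cytokinin oxidase6 (Solyc12g008900), Cytokinin oxidase/dehydrogenase 2 (Solyc10g017990), Cytokinin dehydrogenase 1 (Solyc04g016430) and cytokinin oxidase4 (Solyc04g080820), and 1 response regulator gene, Solyc06g048930, called a tomato response regulator in its description. The 5 genes were chosen by ID. They were known to be higher in the mutant at the transition stage when they were chosen, so every mutant against wild-type value at that stage is given here as a description, with no test. Deposited descriptions cover only the 435 genes on the authors' own sheets of changed genes, and a search of those descriptions for cytokinin, zeatin, isopentenyltransferase, response regulator, histidine kinase and phosphotransfer words found these 5 genes and 0 others. The rest of the pathway therefore carries no name in the deposited tables. All 5 genes passed the filter on low values, at least 0.5 RPKM (reads per kilobase of gene, scaled to the mapped reads of the library) in at least 3 libraries, as did 18786 genes in all.

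Cytokinins are adenine-derived plant hormones that keep cells of the shoot meristem dividing. Cytokinin oxidase/dehydrogenases inactivate them by cleaving off the side chain, and in Arabidopsis, plants that lack such enzymes in the inflorescence form larger inflorescence meristems. The hormone is sensed by histidine kinase receptors, which pass a phosphate group through transfer proteins to response regulators. The type-A response regulators, a class that holds ARR16 and ARR17 of Arabidopsis, are induced by cytokinin and dampen the signal. Genes of the oxidase family are themselves induced by cytokinin in several plants.

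Libraries were made from wild-type tomato (WT) and from a mutant named slful, whose genotype stands in the deposited legend as ful1/ful2/mbp10/mbp20, naming 4 MADS-box genes of the FRUITFULL family. The sources used here do not state the mutations, the cultivar or the number of mutant lines. Tissue was taken at 4 stages from greenhouse plants: the vegetative shoot meristem (VM), the meristem in transition to flowering (TM), the floral meristem together with the inflorescence meristem (FIM), and the same pair of meristems from the first sympodial shoot (SFIM). Each of the 8 groups, WT and slful at VM, TM, FIM and SFIM, holds 3 libraries described as biological replicates, each from a pool of 30 to 60 meristems. Pooled meristems hold several cell types, so fewer cells that express a gene and less RNA of it per cell cannot be told apart.

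The depth implied by the RPKM steps was 12.9 to 90.4 M reads a library (M for mega), and 29.4 to 32.7 M in the VM and SFIM libraries. At TM it was 60.9, 32.0 and 90.4 M in WT and 12.9, 38.7 and 21.4 M in slful. At FIM it was 31.6, 39.0 and 36.1 M in WT and 15.5, 21.7 and 30.1 M in slful. The part of depth in the genotype differences was not tested. The locus listed as the meristem gene TKN2 (Solyc02g081120) was at 136 to 248 RPKM in all 24 libraries, and that listed as the stem cell gene CLV3 (Solyc11g071380) at 2.15 to 42.2; the deposited tables do not pair these symbols with the loci. FUL1 (Solyc06g069430) was at 28.1 to 34.8 RPKM in WT FIM and 10.7 to 11.8 in slful FIM, while the MADS-box locus listed as MBP20 (Solyc02g089210) was higher in slful, at 62.6 to 69.0 RPKM in slful TM against 28.1 to 53.0 in WT TM, so transcript levels do not check every mutation. WT TM replicate 1 stood apart: the 7 genes described as chlorophyll a-b binding or photosystem proteins summed to 173 RPKM in it, against 93.9 and 57.9 in WT TM replicates 2 and 3 and 56.1 to 61.7 in slful TM. These 7 genes are among those the authors listed as changed between genotypes, so their sums do not compare tissue between WT and slful. The log2 differences between genotypes at TM and their median are given below with and without WT TM replicate 1. Other values that use the WT TM group, such as means, ratios of means, sums, shares and correlations, are given only with it.

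**Figure D1:**
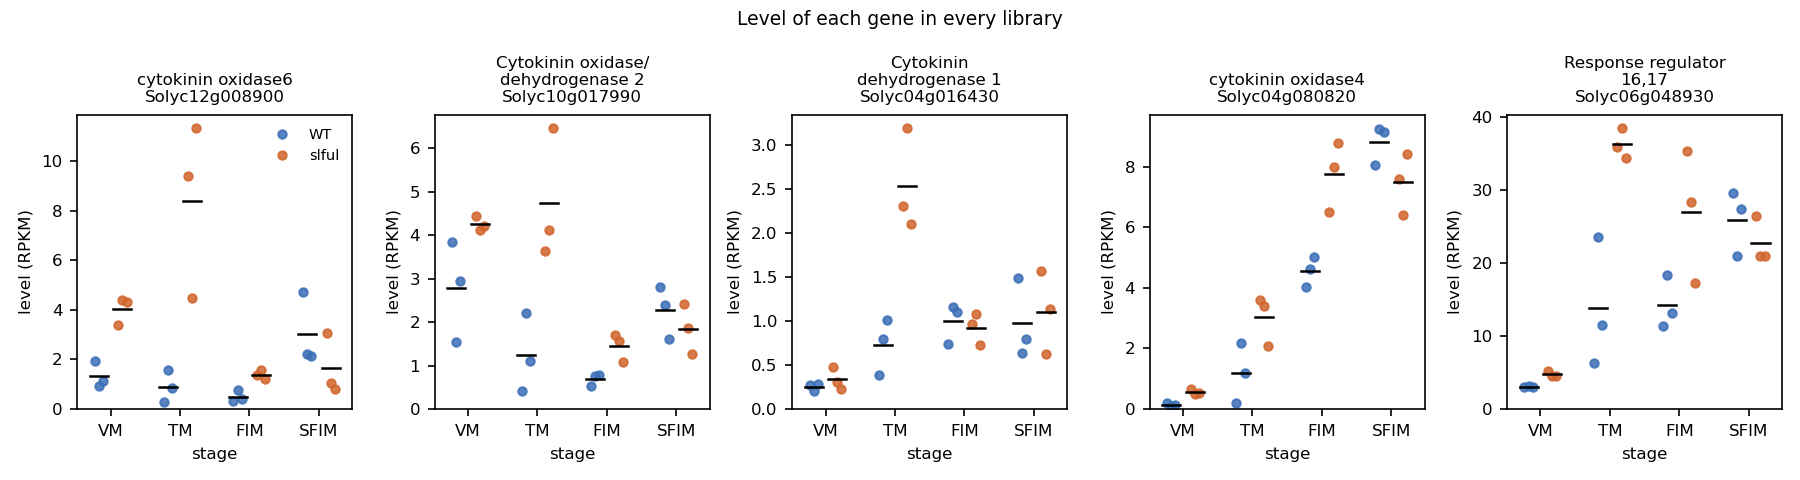
Level in RPKM (vertical axis) of each of the 5 genes in the 24 libraries, by stage (horizontal axis), with WT in blue and slful in orange; each point is 1 library and each line the mean of 3. The slful TM points lie above all other libraries for Cytokinin dehydrogenase 1, and for cytokinin oxidase6 except for slful TM replicate 2 at 4.48 RPKM, which is below WT SFIM replicate 1 at 4.72, while cytokinin oxidase4 is highest at SFIM and slful FIM.

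Cytokinin oxidase6, an enzyme gene of the breakdown family, had the widest ratio between the genotypes at TM. At VM it was at 1.94, 0.944 and 1.14 RPKM in WT and at 3.37, 4.38 and 4.32 in slful. At TM it was at 0.279, 1.57 and 0.869 RPKM in WT and at 9.40, 4.48 and 11.3 in slful. All slful libraries were above all WT libraries at both stages, and the mean in slful was 3.0 times that in WT at VM and 9.26 times at TM. At FIM it was at 0.336, 0.749 and 0.427 RPKM in WT and at 1.37, 1.56 and 1.2 in slful, again without overlap but at a lower level in both genotypes. At SFIM the order of the means turned: WT was at 4.72, 2.21 and 2.12 RPKM and slful at 3.08, 1.05 and 0.813, with overlapping ranges. Ordered by their means, slful TM (8.40 ± 3.52 RPKM, SD, n = 3) stood first and did not overlap slful VM (4.03 ± 0.567), the next group, though it overlapped WT SFIM (3.02 ± 1.47), the third. WT FIM (0.504 ± 0.217) stood last, and from slful VM down each group overlapped its neighbour in the order.

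Cytokinin oxidase/dehydrogenase 2 had its highest levels at VM and in slful TM. At VM its level was 3.85, 1.54 and 2.94 RPKM in WT and 4.43, 4.12 and 4.22 in slful. At TM it was 0.415, 2.20 and 1.11 RPKM in WT and 3.64, 4.13 and 6.47 in slful. The genotypes did not overlap at either stage, but the slful ranges of VM and TM did overlap, and the WT mean was 2.78 RPKM at VM and 1.24 at TM. At FIM the level was 0.540, 0.754 and 0.782 RPKM in WT and 1.71, 1.57 and 1.08 in slful, the lowest stage in each genotype by the mean. At SFIM it was 2.81, 2.39 and 1.61 RPKM in WT and 2.41, 1.86 and 1.26 in slful, and the genotypes overlapped. The order of the means ran from slful TM (4.75 ± 1.51 RPKM, SD, n = 3) and slful VM (4.26 ± 0.161) to WT FIM (0.692 ± 0.133). The slful VM range lay above WT VM, while slful TM, with its lowest library at 3.64 RPKM, overlapped WT VM, with its highest at 3.85. The other six groups, from WT VM (2.78 ± 1.17) down to WT FIM, each overlapped the next.

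Cytokinin dehydrogenase 1 was the lowest of the enzyme genes at every stage in slful by its mean. It rested on few reads at VM, 13 to 29 a library. At VM it was at 0.271, 0.209 and 0.287 RPKM in WT and at 0.474, 0.312 and 0.232 in slful. At TM it was at 0.391, 0.790 and 1.01 RPKM in WT and at 2.30, 3.19 and 2.11 in slful. The genotypes overlapped at VM and were apart at TM, where slful averaged 3.47 times WT. At FIM it was at 0.739, 1.16 and 1.1 RPKM in WT and at 0.964, 1.07 and 0.727 in slful. At SFIM it was at 1.49, 0.639 and 0.800 RPKM in WT and at 1.56, 0.623 and 1.13 in slful. Both later stages showed overlapping genotypes around a common level. The slful TM group (2.53 ± 0.578 RPKM, SD, n = 3) therefore stood alone at the top, the groups from slful SFIM (1.11 ± 0.472) to WT TM (0.731 ± 0.314) overlapped one another in turn, and WT VM was lowest (0.256 ± 0.0415).

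Cytokinin oxidase4 differed more between stages than between genotypes. At VM it was at 0.186, 0.109 and 0.148 RPKM in WT, from 7 to 12 reads a library, and at 0.668, 0.494 and 0.532 in slful. At TM it was at 0.206, 2.19 and 1.21 RPKM in WT and at 3.59, 3.42 and 2.09 in slful. The VM ranges were apart, while at TM the highest WT library, replicate 2, lay above the lowest slful library, replicate 3. At FIM it was at 4.04, 4.62 and 5.03 RPKM in WT and at 6.50, 7.98 and 8.79 in slful, with no overlap. At SFIM it was at 8.07, 9.26 and 9.15 RPKM in WT and at 7.59, 6.41 and 8.44 in slful, with overlap. The WT mean at SFIM was 59.7 times that at VM and the slful mean 13.2 times, described without a test because the VM libraries are among those that put this gene on an authors' sheet. In order of the means, WT SFIM (8.82 ± 0.659 RPKM, SD, n = 3), slful FIM (7.75 ± 1.16) and slful SFIM (7.48 ± 1.02) overlapped, WT FIM (4.56 ± 0.50) stood clear of the groups on either side, and WT VM (0.148 ± 0.0384) was lowest.

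The response regulator Solyc06g048930 had the highest mean level per length of the 5 genes in each of the 8 groups, although in WT VM it overlapped Cytokinin oxidase/dehydrogenase 2. At VM it was at 3.0, 3.12 and 3.0 RPKM in WT and at 5.25, 4.59 and 4.58 in slful. At TM it was at 6.35, 23.6 and 11.6 RPKM in WT and at 35.9, 38.6 and 34.5 in slful. The ranges were apart at both stages, and the slful TM libraries differed little from each other while the WT TM libraries spanned the widest range of any WT group. At FIM it was at 11.4, 18.4 and 13.1 RPKM in WT and at 35.3, 28.4 and 17.3 in slful, where slful replicate 3 fell inside the WT range. At SFIM it was at 29.6, 20.9 and 27.4 RPKM in WT and at 26.5, 21.0 and 21.0 in slful. The slful level thus stood at 36.3 ± 2.07 RPKM (SD, n = 3) by TM, whereas the WT level was 13.8 ± 8.85 at TM, 14.3 ± 3.69 at FIM and 26.0 ± 4.51 at SFIM. The 4 highest groups, slful TM, slful FIM, WT SFIM and slful SFIM, overlapped in turn, and slful VM (4.81 ± 0.380) and WT VM (3.04 ± 0.0732) stood apart below the others.

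**Figure D2:**
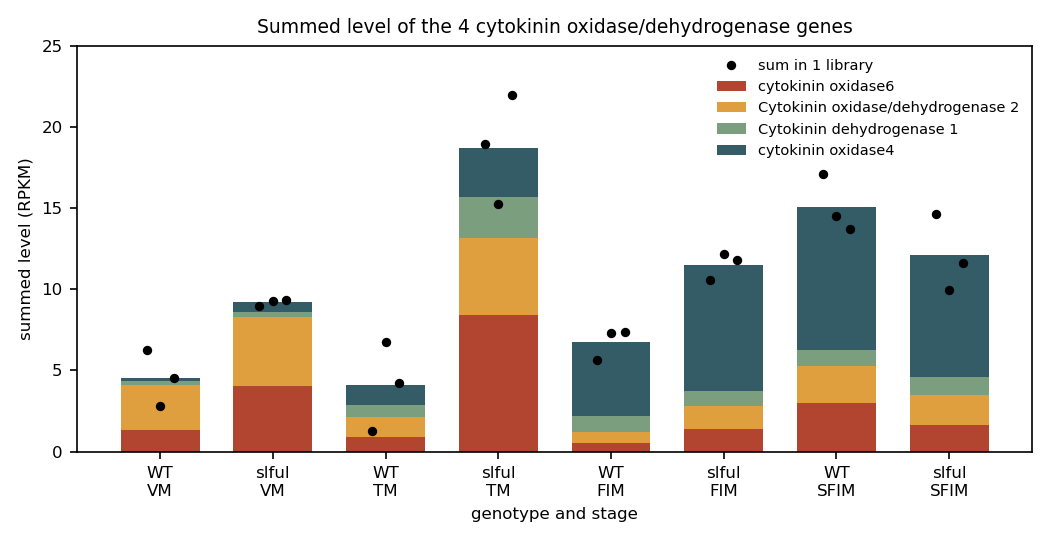
Summed level in RPKM (vertical axis) of the 4 cytokinin oxidase/dehydrogenase genes in each of the 8 groups (horizontal axis); bars are stacked means of 3 libraries, coloured by gene, and dots are the sum in each library. The slful TM sum, 18.7 RPKM, is the highest by the mean, but its lowest library (15.2) is below the highest of WT SFIM (17.1). The blue-green share of cytokinin oxidase4 is smallest at VM and largest at FIM in both genotypes, at 67.8% in WT FIM and 67.2% in slful FIM.

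Added together, the 4 enzyme genes reached 4.52 ± 1.73 RPKM in WT VM and 9.19 ± 0.207 in slful VM (SD, n = 3 in this and the following groups). The sum was 4.08 ± 2.73 RPKM in WT TM against 18.7 ± 3.39 in slful TM, and 6.76 ± 0.960 in WT FIM against 11.5 ± 0.856 in slful FIM. At SFIM it was 15.1 ± 1.77 RPKM in WT and 12.1 ± 2.38 in slful. The genotypes did not overlap at VM, TM and FIM and overlapped at SFIM; the sum holds genes chosen at TM and has no test. Its make-up changed with the stage. Cytokinin oxidase/dehydrogenase 2 made up 60.6% ± 5.17 of the sum in WT VM and 10.2% ± 0.569 in WT FIM. Cytokinin oxidase4 made up 3.38% ± 0.472 in WT VM, 67.8% ± 4.04 in WT FIM and 67.2% ± 6.63 in slful FIM, and 59.3% ± 10.6 and 62.9% ± 10.4 at SFIM. Cytokinin oxidase6 held 43.8% ± 5.25 in slful VM and 43.5% ± 12.2 in slful TM, against 30.0% ± 4.34 and 21.9% ± 1.33 in WT. The sum in slful TM was thus led by cytokinin oxidase6, and that in WT SFIM by cytokinin oxidase4.

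**Figure D3:**
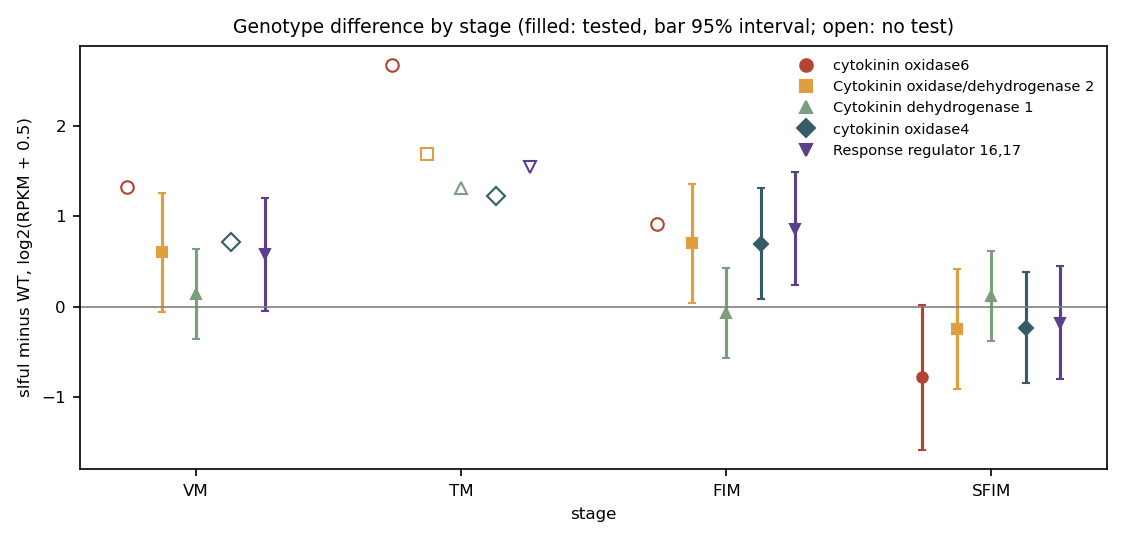
Difference between slful and WT on the log2(RPKM + 0.5) scale (vertical axis) for each gene at each stage (horizontal axis); filled symbols were tested and carry a 95% interval, open symbols had no test because the values there helped to choose the gene. At SFIM 4 of 5 points lie below 0 and every interval includes 0; at FIM 3 of the 4 tested intervals lie above 0, though none passed the adjusted threshold.

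Each of the 5 genes differed most between genotypes at TM, the stage that chose them, on the log2 scale with all libraries. As a ratio of means, cytokinin oxidase4 instead differed more at VM, at 3.82 against 2.53 at TM. On the log2(RPKM + 0.5) scale, which understates the change of low genes, slful minus WT at TM was 2.68 for cytokinin oxidase6, 1.69 for Cytokinin oxidase/dehydrogenase 2, 1.32 for Cytokinin dehydrogenase 1, 1.23 for cytokinin oxidase4 and 1.55 for the response regulator. For 4 of the 5 genes the slful TM libraries were all above the WT TM libraries, as were those of 5.91% of the 18786 genes. Without WT TM replicate 1, in which each of the 5 genes was lowest among the WT TM libraries, the differences were 2.31, 1.29, 1.1, 0.69 and 1.11 in the same order. The value for cytokinin oxidase4 was then below its VM difference of 0.715. Without WT TM replicate 2 the differences were 3.02, 2.07, 1.37, 1.66 and 2.02. The median over the 5 genes was 1.55 with all libraries, 1.11 and 2.02 without each of these, and -0.02 over all 18786 genes. Because the genes were chosen as higher in slful at TM, neither this median nor the count of ranges apart can be read against all genes.

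At VM the difference before the switch to flowering did not pass for any of the 3 genes that could be tested. The ranges were apart with slful higher for 4 of 5 genes, against 10.8% of all genes, but cytokinin oxidase6 and cytokinin oxidase4 are on the authors' VM sheet and were not tested there. The difference was 0.60 on the log2 scale (SE 0.32, 95% interval -0.06 to 1.26) for Cytokinin oxidase/dehydrogenase 2, 0.14 (SE 0.24, -0.36 to 0.64) for Cytokinin dehydrogenase 1 and 0.58 (SE 0.30, -0.04 to 1.21) for the response regulator. Their adjusted p-values from limma, Benjamini-Hochberg over all genes, were 0.902, 1 and 0.891. The count was 0 of 3 at an adjusted p under 0.05, where 0.447% of all genes passed, 0 of 3 at an unadjusted p under 0.05, and 0 with limma's voom on the reads behind the values. These 3 are the genes left after those on the authors' VM sheet were set aside for their difference there, so their count cannot be read against the share of all genes, from which none was set aside. The same holds for the counts below that leave out listed genes, at FIM, in the average and between VM and SFIM. The median over the 5 genes was 0.60, against 0.01 over all genes, and over the 3 tested genes it was 0.58. Cytokinin oxidase6 and cytokinin oxidase4 were listed by the authors for their difference at VM. The median over the 5 genes and the count of ranges apart therefore cannot be read against all genes either. The same holds for the count of ranges apart at FIM, where cytokinin oxidase6 was listed.

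At FIM, where floral meristems are present, the response regulator and cytokinin oxidase4 had the largest of the 4 tested differences relative to their error, and their calls depended on which libraries shared the estimate of the spread. The ranges were apart with slful higher for 3 of 5 genes, against 7.57% of all genes; one of the 3, cytokinin oxidase6, is on the authors' FIM sheet and was not tested. The difference was 0.86 on the log2 scale (SE 0.30, 95% interval 0.24 to 1.49) for the response regulator, 0.70 (SE 0.29, 0.09 to 1.31) for cytokinin oxidase4, 0.70 (SE 0.32, 0.04 to 1.36) for Cytokinin oxidase/dehydrogenase 2 and -0.07 (SE 0.24, -0.57 to 0.42) for Cytokinin dehydrogenase 1. The adjusted p-values from limma were 0.128, 0.169, 0.189 and 0.871. Thus 0 of 4 passed, where 1.51% of all genes did, although 3 of 4 had an unadjusted p under 0.05; voom gave 0 as well. With the TM libraries left out of the fit, cytokinin oxidase4 (adjusted p = 0.00988 from limma) and the response regulator (0.0450) passed at an unchanged difference. With the FIM libraries alone in the fit neither gene passed, at an adjusted p from limma of 0.337 and 0.554. Nor did either pass with 1 weight per group, at an adjusted p from limma of 0.477 and 0.429. Without slful FIM replicate 3 the response regulator passed alone (1.15, adjusted p = 0.0163 from limma), in a fit in which 4789 of all genes passed, against 284 with all libraries.

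At SFIM the slful means of 4 of the 5 genes were below the WT means, and none of the 5, all of which could be tested, passed. The difference was -0.78 on the log2 scale (SE 0.39, 95% interval -1.59 to 0.02) for cytokinin oxidase6, with an adjusted p of 0.807 from limma. It was -0.25 (-0.91 to 0.41) for Cytokinin oxidase/dehydrogenase 2, 0.12 (-0.38 to 0.62) for Cytokinin dehydrogenase 1, -0.23 (-0.84 to 0.38) for cytokinin oxidase4 and -0.18 (-0.80 to 0.45) for the response regulator, each with an adjusted p of 1. The ranges overlapped for all 5 genes, so 0 of 5 were apart with slful higher, against 11.8% of all genes, and 0 apart with slful lower, against 6.37%. The count of calls was 0 of 5, also at an unadjusted p under 0.05 and with voom, against 0.367% of all genes.

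Averaged over VM, FIM and SFIM, the stages that did not choose the set as a whole, the response regulator differed by 0.42 on the log2 scale (SE 0.17, 95% interval 0.06 to 0.78), with an adjusted p of 0.264 from limma. Cytokinin oxidase/dehydrogenase 2 gave 0.35 (SE 0.18, -0.03 to 0.73; adjusted p = 0.384 from limma) and Cytokinin dehydrogenase 1 gave 0.06 (SE 0.14, -0.22 to 0.35; 0.846). Of these 3 genes 0 passed, where 1.95% of all genes did; 1 had an unadjusted p under 0.05, and voom gave 0.

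Between VM and SFIM, the stages whose values were deposited in the same format, the response regulator and Cytokinin dehydrogenase 1 rose in both genotypes. In WT the response regulator rose by 2.89 (log2 scale; SE 0.30, adjusted p = 2.15e-07 from limma) and Cytokinin dehydrogenase 1 by 0.92 (SE 0.24, adjusted p = 0.00526), while Cytokinin oxidase/dehydrogenase 2 gave -0.20 (SE 0.32, adjusted p = 0.684). So 2 of the 3 testable genes were called higher and 0 lower, where 12.8% of all genes were called higher and 18.1% lower. In slful the response regulator rose by 2.13 (SE 0.30, adjusted p = 1.36e-05 from limma), Cytokinin dehydrogenase 1 rose by 0.90 (SE 0.24, adjusted p = 0.00683) and Cytokinin oxidase/dehydrogenase 2 fell by 1.05 (SE 0.32, adjusted p = 0.0159). That is 2 of 3 higher and 1 of 3 lower, where 12.4% and 16.8% of all genes were. The call of Cytokinin dehydrogenase 1 in slful ended without slful SFIM replicate 1 (0.70, adjusted p = 0.0519 from limma), and that of Cytokinin oxidase/dehydrogenase 2 without slful SFIM replicate 3 (-0.86, adjusted p = 0.0838).

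The fall of Cytokinin oxidase/dehydrogenase 2 in slful was not shown to differ from the change in WT. The interaction, the slful change from VM to SFIM minus the WT change, was -0.85 on the log2 scale (SE 0.45, 95% interval -1.78 to 0.08) for this gene, -0.76 (SE 0.42, -1.64 to 0.13) for the response regulator and -0.02 (SE 0.34, -0.73 to 0.68) for Cytokinin dehydrogenase 1. Each adjusted p from limma was 1. Of the 3 genes 0 passed, also at an unadjusted p under 0.05 and with voom, where 0.0213% of all genes passed.

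The authors' deposited table, whose test the sources used here do not name, holds 4 of the 5 genes at TM, 2 at VM, 1 at FIM and 0 at SFIM, all with slful higher. At TM it gives a log2 fold change of 3.22 for cytokinin oxidase6, 1.94 for Cytokinin oxidase/dehydrogenase 2, 1.81 for Cytokinin dehydrogenase 1 and 1.40 for the response regulator, the smallest of the 4. In the authors' deposited table cytokinin oxidase4 is not on the TM sheet as held here but is on the VM sheet, with a log2 fold change of 1.91. The authors' deposited table gives cytokinin oxidase6 a log2 fold change of 1.57 at VM and 1.48 at FIM, the latter with the largest false discovery rate among these entries, 0.010. Entries on these sheets reach a false discovery rate of at most 0.04993 and an absolute log2 fold change of at least 1.003.

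**Figure D4:**
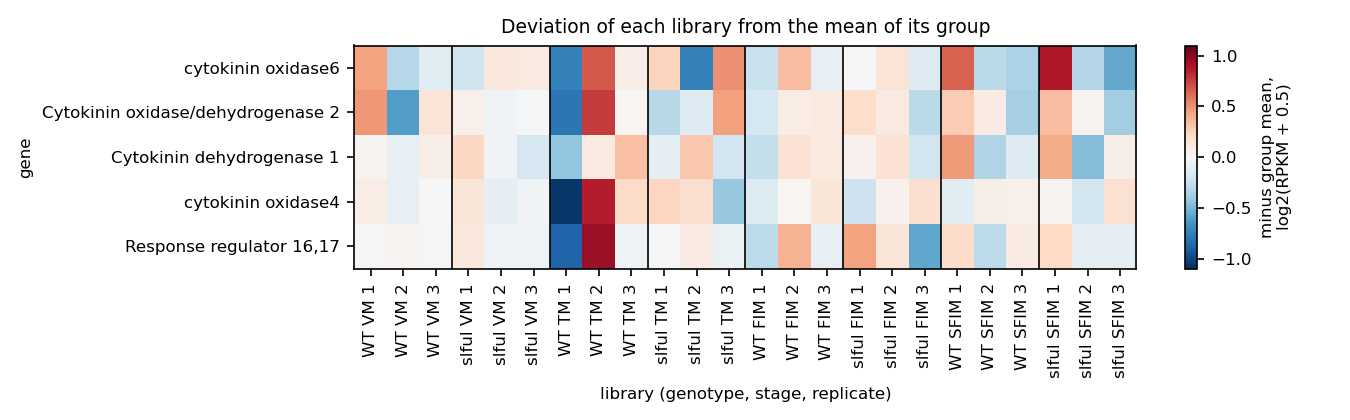
Deviation of each library from the mean of its group on the log2(RPKM + 0.5) scale (colour, red above and blue below), for the 5 genes (rows) in the 24 libraries (columns, grouped by genotype and stage). WT TM replicate 1 is blue in all 5 rows and WT TM replicate 2 is red in all 5, a wider spread than in the VM groups of slful.

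Within groups, the 5 genes deviated together in some libraries. In WT TM their SDs on the log2 scale ran from 0.39 to 0.98, where the median gene had 0.15, and all 5 lay above that median. This was not particular to WT TM: all 5 lay above the median of the group also in WT FIM, WT SFIM and slful SFIM. The number was 4 in slful VM and slful TM and 2 in WT VM and slful FIM. Replicate 1 was the lowest WT TM library for 5 of 5 genes, as it was for 30.3% of all genes, and for 4 of 5 genes it was lowest while replicate 2 was highest, as for 17.7% of all genes. The same order was seen in the locus listed as the stem cell gene WUS (Solyc02g083950), at 12.6, 29.0 and 19.8 RPKM in WT TM replicates 1 to 3. It was seen in the flower meristem MADS-box gene macrocalyx (Solyc05g056620), at 44.8, 95.4 and 62.0 RPKM, and in FUL1, at 13.9, 24.98 and 18.5 RPKM. In all, 5 of the 8 loci listed as meristem and stage markers and 3 of the 4 targeted genes had replicate 1 lowest and replicate 2 highest. The exceptions among the markers were the loci listed as TKN2, at 136, 158 and 162 RPKM, as AN (Solyc02g081670), at 0.288, 1.28 and 0.105, and as TMF (Solyc09g090180), at 207, 175 and 229, and among the targeted genes that listed as MBP10 (Solyc02g065730), at 1.82, 1.99 and 1.99. The summed chlorophyll and photosystem genes ran otherwise, at 173, 93.9 and 57.9 RPKM, with 0 of the 7 genes at 0 in all libraries of any group; the part of stage or tissue in these deviations was not tested.

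At FIM and SFIM the shared deviations lay in other libraries. In SFIM, replicate 1 was the highest library for 4 of 5 genes in WT and for 4 of 5 in slful, as it was for 36.3% and 30.6% of all genes. Cytokinin oxidase6 contributed most to this, with replicate 1 at 4.72 RPKM in WT and 3.08 in slful and the other libraries at or below 2.21. In slful FIM, replicate 3 was the lowest library for 4 of 5 genes, as for 26.9% of all genes, and cytokinin oxidase4 was the exception with its highest value there. The terpene or sesquiterpene synthase genes, 5 genes used as a mark of trichome tissue, summed to 2.41 to 9.68 RPKM in slful FIM and 1.04 to 2.61 in WT FIM, and to 1.29 to 2.40 in WT SFIM and 1.35 to 5.59 in slful SFIM, with 0 of the 5 at 0 in all libraries of any group. The chlorophyll and photosystem genes summed to 37.0 to 83.5 RPKM in WT FIM and 27.6 to 39.1 in slful FIM, and to 7.57 to 11.3 in WT SFIM and 17.4 to 31.4 in slful SFIM. At VM they summed to 19.0 to 36.6 RPKM in WT and 25.2 to 38.1 in slful. Both marker lists hold only genes with a deposited description, which are genes the authors listed as changed between genotypes. Their sums therefore cannot be read as a measure of tissue between WT and slful. The part of either marker list in the genotype differences was not tested.

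**Figure D5:**
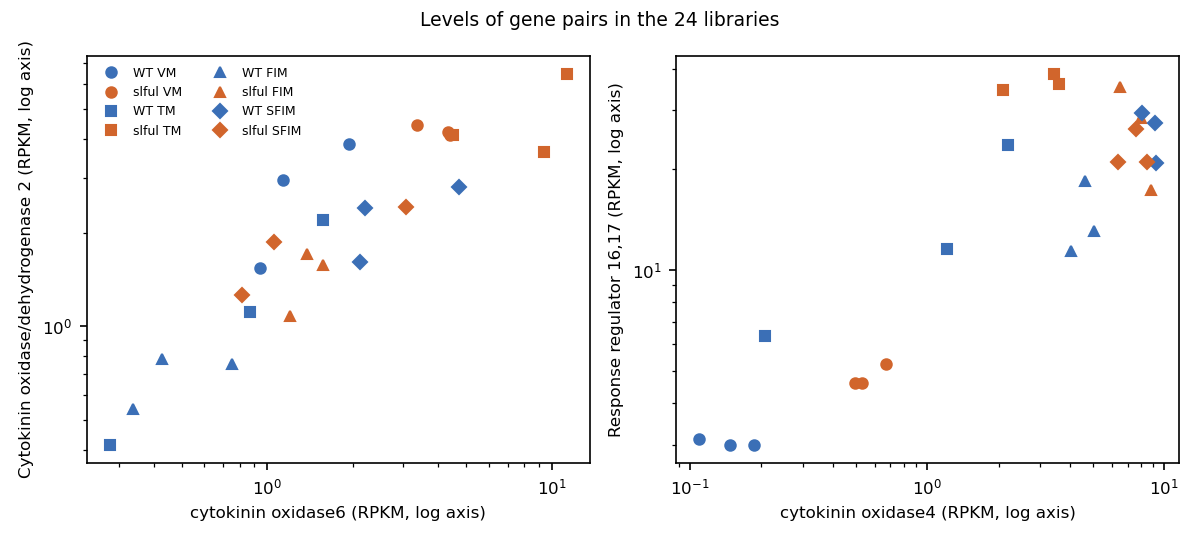
Levels of 2 gene pairs in the 24 libraries, in RPKM on log axes, with stages as symbols and genotypes as colours; left, Cytokinin oxidase/dehydrogenase 2 against cytokinin oxidase6, and right, the response regulator against cytokinin oxidase4. On the left the points of both genotypes form one band from WT FIM and WT TM replicate 1 to slful TM; on the right WT VM is lowest in both genes and slful TM lies above the other libraries of similar cytokinin oxidase4 level.

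The 5 genes formed 2 patterns across the groups. Over the 8 group means on the log2(RPKM + 0.5) scale, cytokinin oxidase6 and Cytokinin oxidase/dehydrogenase 2 had a Pearson r of 0.92, both being high in slful VM and slful TM and low at FIM. The response regulator had an r of 0.89 with Cytokinin dehydrogenase 1 and of 0.86 with cytokinin oxidase4, and Cytokinin dehydrogenase 1 and cytokinin oxidase4 had 0.62 with each other; all 3 were lowest at VM. The pairs across the 2 patterns had r from -0.33 to 0.40. These correlations are descriptions over 8 points that share the libraries in which the genes were chosen.

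Among the other genes with a deposited description, the closest pattern over the 24 libraries was that of an HXXXD-type acyl-transferase gene (Solyc12g005430), which had a Pearson r of 0.99 with cytokinin oxidase4 and stood first among all genes tested. Its level was 3.04 ± 0.506 RPKM in WT VM and 44.6 ± 2.06 in WT SFIM (SD, n = 3), and 5.86 ± 0.0896 and 35.9 ± 5.39 in slful. A 2-oxoglutarate-dependent oxygenase gene (Solyc02g062500) followed with 0.98. The response regulator was closest to the MADS-box locus Solyc02g089210, listed as MBP20, with an r of 0.93, and 8 genes without a description were closer. Its next was a gene of a wound-responsive family (Solyc07g063640) with 0.92. Cytokinin oxidase6 was closest to a glycosyltransferase gene (Solyc07g006800) with 0.79, and Cytokinin oxidase/dehydrogenase 2 to a methyltransferase gene (Solyc12g014500) with 0.81, with 1 undescribed gene closer in each case. Both had as their next a glucan endo-1,3-beta-glucosidase gene (Solyc12g040860), with 0.72 each, which stood at 9.54 ± 1.68 RPKM in slful VM and 0.152 ± 0.0214 in WT VM. Cytokinin dehydrogenase 1 was closest to MAP kinase kinase kinase 87 (Solyc12g088940) with 0.80, with 26 undescribed genes closer, and next to a gene of unknown product (Solyc03g112200) with 0.79. Described genes are those the authors listed as changed between genotypes, and the 24 libraries include those that chose the 5 genes.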

How the data were processed

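RNA was measured by sequencing in 24 libraries of pooled meristems; aligner, strand handling and genome build: not given in the sources used here. Per the deposited legend, the authors gave 1 RPKM value per gene and library. Per the file headers, the authors' sheets hold log2 and signed fold changes (the latter a score), p-values and false discovery rates. Groups follow the labels. Reads were recovered from the RPKM steps with Python 3.11.15, numpy 2.4.6 and pandas 2.3.3: all 25568 genes above 0 were whole within 0.05 reads. limma 3.58.1 in R 4.3.3 was fitted to log2(RPKM + 0.5) of 18786 genes (at least 0.5 RPKM in at least 3 libraries), with 1 mean per group over 24 libraries, a trended prior, 2-sided tests and Benjamini-Hochberg adjustment over all genes, called under 0.05. The script was checked on simulated data. The 5 genes and all lists were chosen with earlier results of these data known. Any of the 5 genes on an authors' sheet got no test of a comparison between group means that included that stage. The libraries of that stage still shared in the estimate of the spread. Named genes were the 5 members and, for each, the 2 described genes of highest Pearson r. Alternatives changed the added constant, filter, centring, weights, libraries in the fit, unit (voom) and pairing. P-values weigh a difference between group means against the spread between libraries within groups, and each library is a pool of meristems. VM and SFIM values carry fewer decimals than TM and FIM values. One line of the TM sheet was empty.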

Additional observations from a re-analysis of the deposited data

Results flagged for a closer look

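Cytokinin oxidase6 moved in opposite directions in the genotypes between the early stages and SFIM. From VM to SFIM its difference was 0.89 on the log2(RPKM + 0.5) scale in WT and -1.22 in slful. From TM to SFIM it was 1.36 in WT and -2.11 in slful. In each case all 3 WT SFIM libraries lay above the earlier WT libraries, and all 3 slful SFIM libraries lay below the earlier slful libraries. Against VM the nearest libraries were close. They were at 2.12 RPKM in WT SFIM and 1.94 in WT VM, and at 3.08 in slful SFIM and 3.37 in slful VM. The gene is on the authors' sheets for VM and TM, so the difference between the genotypes was not tested.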

How the results depend on the processing

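Of the counts of calls and the TM median, 148 recomputed values stayed within 1.5 times the reported count, or within 1 SD for the median, and 3 did not. In WT SFIM against VM the count was 1 when a gene's mean had to reach 1 RPKM, a filter that removes Cytokinin dehydrogenase 1 and also gave 2 in place of 3 in slful. At FIM the count was 2 without the TM libraries and, leaving out single libraries, 0 to 1. With each library left out, the TM median ran from 1.11 to 2.02, WT SFIM against VM gave 2, slful SFIM against VM gave 2 to 3, and VM, SFIM, their average with FIM and the interaction gave 0. At TM, voom gave 3.41, 2.34, 1.92 and 1.99 for the enzyme genes in the order of the text, and a constant of 0.1 gave 1.72 for Cytokinin dehydrogenase 1; the cause was not tested. Over all genes, calls ran from 53 to 313 at VM (84 in the report), 9 to 4789 at FIM (284), 15 to 391 at SFIM (69), 247 to 675 for the average (367), 0 to 29 for the interaction (4), 4532 to 8673 for the WT stage change (5790) and 4273 to 8985 for that in slful (5487). Deviations of same-numbered libraries of the genotypes correlated at 0.16 to 0.23 at TM, where nothing was tested, at -0.02 to 0.14 at VM, -0.33 to 0.16 at FIM and -0.07 to 0.10 at SFIM, and at -0.04 to 0.08 between VM and SFIM, so replicate numbers were not taken to pair the samples tested. With replicate as a block the counts were 0 at VM, FIM, SFIM and for their average, 2 and 3 for the stage changes in WT and slful and 0 for the interaction, and a block across stages, chosen after seeing the data, gave 2, 3 and 0. Depth limits cytokinin oxidase4 in WT VM, at 7 to 12 reads.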
